A study of Mus musculus with 24 samples.

Results

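Loss of Elk1 was set against wild type in mouse double-positive (DP) thymocytes that had been stimulated through the T cell receptor complex. The comparison used 6 of the 24 Affymetrix Mouse430_2 arrays of the series, chosen by their labels: 3 of ElkKO and 3 of wild type (WT), each from a different male mouse of the Black 6J strain, aged 8 weeks. DP cells, the immature thymocytes that carry both CD4 and CD8, were sorted from the thymus, rested in culture and spun onto plates that carried bound anti-CD3, where they stayed 30 min before total RNA was extracted. The other groups used below are untreated ElkKO and WT cells of the same mice, kept on uncoated plates, and stimulated ElkSapKO and SapKO cells of other mice, with 3 arrays in each group and the same strain, sex and age. Elk was read as Elk1 and Sap as Elk4, whose protein is also called SAP-1. The labels give a genotype without the targeting strategy, so that no promoter or cell type can be named for the deletion. P-values reflect the spread between separate mice within the groups of all 24 arrays. The untreated and stimulated arrays of a mouse were treated as independent, and precision is limited by how few arrays there are.

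Elk1, Elk4 and Elk3 are the ternary complex factors, ETS-family proteins that sit on DNA next to a dimer of serum response factor (Srf) and are switched on when ERK kinases phosphorylate them. In DP cells a signal from the T cell receptor activates ERK within minutes, and immediate early genes such as Egr1, Egr2, Fos and Nr4a1 are then transcribed without new protein synthesis. The strength of this signal decides whether a DP cell dies, is deleted or matures. Srf also works with a second set of partners, the myocardin-related factors, which answer to the state of the actin cytoskeleton and act on genes of actin and its binding proteins.

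Signals are given on the log2 scale of the deposited values, so that a difference of 1 is a doubling, and each gene is represented by its brightest probe set. A gene is said to have risen or fallen in ElkKO when its Benjamini-Hochberg adjusted p in limma, over 18193 genes, was under 0.05. Errors after ± are standard errors from limma unless SD is stated. As bulk RNA was measured, fewer cells of a type and less RNA per cell cannot be told apart.

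The deleted gene gave only a weak check of the labels. The brightest of 3 Elk1 probe sets read 4.69, 4.52 and 4.40 in the stimulated ElkKO arrays and 4.69, 4.81 and 4.79 in the WT arrays, a difference of −0.22 ± 0.17 (adjusted p = 0.682). The second read 3.89, 4.12 and 3.82 in ElkKO and 4.52, 4.22 and 4.55 in WT, without overlap, a difference of −0.49 ± 0.19 (adjusted p over probe sets = 0.277). The third differed by 0.24 in the other direction. In these stimulated arrays all 3 lay below 4.92, which was taken as the background level. It is the highest signal of Xist in the stimulated and untreated ElkKO and WT arrays, all from male mice. In untreated cells of the same mice the brightest read 4.69, 4.46 and 4.03 in ElkKO and 4.89, 5.23 and 4.70 in WT (difference −0.55, unadjusted p = 0.00436, adjusted p = 0.293 in limma), and the second differed by −0.63 (unadjusted p = 0.00309, adjusted p over probe sets = 0.231). Both were lower in untreated ElkKO without overlap, and WT mouse 2 lay above the background level. Whether the probes lie in the deleted part is not given. The other ternary complex factors were not called. Elk4 averaged 10.76 ± 0.22 in ElkKO and 10.58 ± 0.30 in WT (SD, n = 3 each), a difference of 0.18 (adjusted p = 0.873), and Elk3 differed by 0.13 (adjusted p = 0.927).

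The cells of both genotypes carried the transcripts that define DP thymocytes. The recombinase gene Rag1 read 12.55, 12.33 and 12.53 in ElkKO and 12.46, 12.41 and 12.35 in WT, and the terminal transferase gene Dntt averaged 12.56 in ElkKO and 12.47 in WT. The coreceptor chain Cd8a averaged 12.62 in ElkKO and 12.70 in WT, and Cd4 averaged 11.10 in ElkKO and 11.55 in WT, with no call for any of these. Of the marker lists for other cell types, none held a called gene, beside 0.22% of all genes called. In both genotypes 8 of 9 measured granulocyte markers and 12 of 16 macrophage and dendritic cell markers averaged below the highest Xist signal. Summed linear signals of the 12 double-negative thymocyte markers were 1376 to 1515 in ElkKO and 1912 to 2276 in WT, which did not overlap. Those of the 16 epithelial and stromal markers were 1403 to 1529 in ElkKO and 1529.7 to 1747 in WT, which were next to each other without overlap, and 10 of the 16 averaged below the highest Xist signal in both genotypes. The part of these markers in the differences below was not tested. Sums of the other marker lists overlapped, such as that of the 10 measured B cell markers, at 3945 to 5401 in ElkKO and 3699 to 5089 in WT.

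Some technical measures of the arrays differed between the genotypes. Actb signal at the 3′ end minus that at the 5′ end, a gap that widens with RNA degradation, was 0.381, 0.453 and 0.603 in the stimulated ElkKO arrays and 0.151, 0.187 and 0.359 in the WT arrays, without overlap. The same measure of Gapdh did not separate them, at −0.0702, −0.0384 and −0.0627 in ElkKO and −0.144, −0.169 and 0.277 in WT, where mouse 3 was the highest of the 6. The dap spike-in, a bacterial RNA added before labelling, read 8.81, 9.16 and 9.03 in ElkKO and 6.00, 6.37 and 9.01 in WT, so that only WT mouse 3 matched the ElkKO level. The plot of array measures shows that ElkSapKO and SapKO were split in the same way. Outside these 6 arrays, 1 stood apart from the rest, that of untreated ElkSapKO cells of mouse 2.

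**Figure D1:**
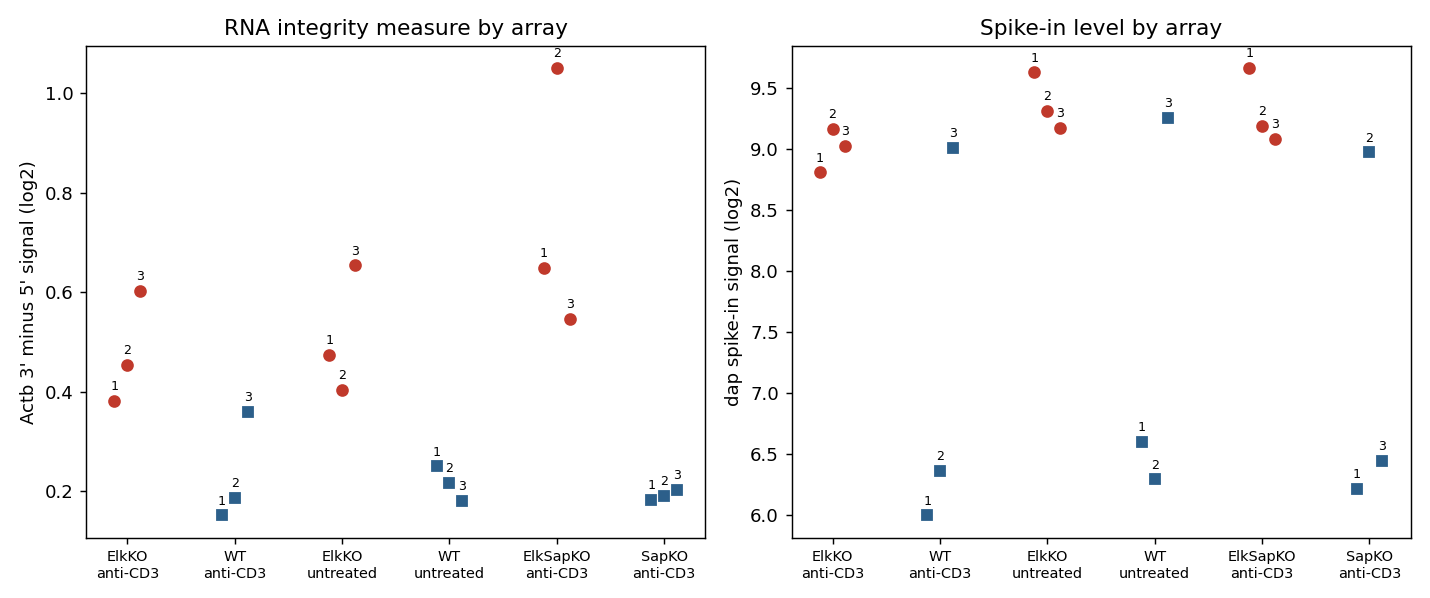
Array measures by group, with mouse numbers above the points; circles are ElkKO or ElkSapKO arrays and squares are WT or SapKO arrays. Left, the 3′ minus 5′ signal of Actb (log2), which was 0.381 to 0.603 in stimulated ElkKO and 0.151 to 0.359 in stimulated WT. Right, the dap spike-in signal (log2), which was 8.81 to 9.16 in stimulated ElkKO and 6.00 to 9.01 in stimulated WT.

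Stimulated ElkKO cells differed from WT cells in 40 of 18193 genes, 0.22% of those tested. Of these, 8 rose (0.044%) and 32 fell (0.176%). The median fall was −0.92 and the median rise 0.80, and 12 falls and 2 rises were larger than 2-fold. Over all genes the median difference was −0.017, and 2073 genes (11.4%) had an unadjusted p under 0.05. All 40 called genes had groups that did not overlap, which was also true of 19% of all genes. The number of calls depended on single arrays: it was 9, 3 and 26 without ElkKO mouse 1, 2 or 3, and 13, 11 and 12 without WT mouse 1, 2 or 3, while it was 264 without the array of ElkSapKO mouse 2 that stood apart, which enters only the estimate of the spread. Of the 40 genes, 2 were called in each of the 6 fits that left out an array of the comparison and 12 in none of them. The 12 included Rab5c, Capzb, Lipe, Lyplal1, Trim11, Rapgef3 and Glyr1, which are described below.

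**Figure D2:**
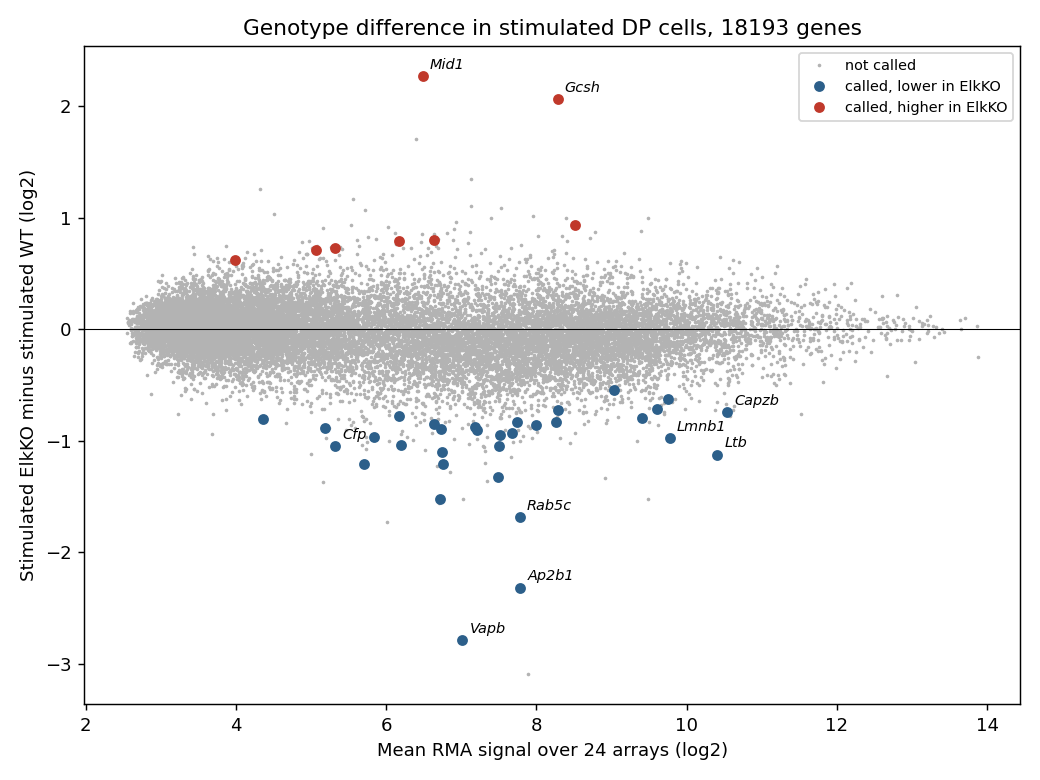
Difference between stimulated ElkKO and stimulated WT (log2, y axis) against mean signal over 24 arrays (log2, x axis) for 18193 genes, with the 40 called genes in colour. The 32 called genes that were lower in ElkKO reach −2.78 at Vapb and the 8 that were higher reach 2.27 at Mid1, while most genes lie close to 0.

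The lowest p belonged to Lmnb1, which encodes lamin B1, a filament protein of the inner nuclear membrane, and which is named here after its values were seen. Lmnb1 read 9.20, 9.32 and 9.32 in stimulated ElkKO and 10.26, 10.13 and 10.37 in WT, a fall of log2 −0.97 ± 0.13 (adjusted p = 0.00263). Its second probe set differed by −0.89 (adjusted p over probe sets = 0.0321). The genotypes were separated by almost 1 on the log2 scale with little spread within either, and the adjusted p lay between 0.00415 and 0.0429 when any 1 of the 6 arrays was left out. Capzb, a subunit of the protein that caps actin filaments, was also named after its values were seen. It read 10.18, 10.24 and 10.14 in ElkKO and 10.84, 10.94 and 11.02 in WT, a fall of log2 −0.75 ± 0.14 (adjusted p = 0.0215). Capzb was called in none of the fits that left out 1 of the 6 arrays. With its probe sets averaged it differed by −0.46 (adjusted p = 0.132 in limma). Myl6 and Eml2, which also encode cytoskeletal proteins, fell more than 2-fold. Myl6 is a light chain of non-muscle and smooth muscle myosin. It read 7.18, 7.20 and 7.46 in ElkKO and 8.35, 8.57 and 8.08 in WT, a fall of log2 −1.05 ± 0.16 (adjusted p = 0.00582). Eml2, which encodes a microtubule-binding protein, fell by 1.21 ± 0.21 on the log2 scale (adjusted p = 0.0198).

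The 3 largest falls were in Vapb, Ap2b1 and Rab5c, whose products work at membranes and vesicles. Ap2b1 encodes the beta subunit of AP-2, the adaptor that loads cargo into clathrin-coated pits at the plasma membrane. It read 6.07, 6.29 and 7.20 in ElkKO and 8.83, 8.74 and 8.95 in WT, 4.98-fold lower in ElkKO (log2 −2.32 ± 0.34, adjusted p = 0.00582). ElkKO mouse 3 was the closest to WT and still lay more than 1 below it, and another Ap2b1 probe set differed by −0.86 (adjusted p over probe sets = 0.0587) while the last, a dim one, differed by −0.02. Rab5c encodes a small GTPase of early endosomes. It read 7.23, 7.16 and 7.13 in ElkKO and 8.80, 8.69 and 9.08 in WT, 3.21-fold lower in ElkKO (log2 −1.68 ± 0.29, adjusted p = 0.0198), but it was called in none of the fits that left out 1 of the 6 arrays. Vapb encodes an endoplasmic reticulum membrane protein that tethers other organelles. It had the largest fall and the widest spread, with 5.22, 4.24 and 6.77 in ElkKO and 7.99, 7.89 and 8.70 in WT (log2 −2.78 ± 0.59, adjusted p = 0.04999). Its other probe sets differed by 0.22 and 0.27, in the opposite direction, so the fall rested on 1 probe set. Man1b1, a mannosidase that trims glycans of glycoproteins in the secretory pathway, fell by 1.53 ± 0.26 on the log2 scale (adjusted p = 0.0198).

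Ltb and Cfp encode secreted or surface proteins of the immune system. Ltb encodes lymphotoxin beta, a membrane-bound ligand of the tumour necrosis factor family. It read 9.61, 9.47 and 10.22 in ElkKO and 10.95, 10.99 and 10.73 in WT, a fall of log2 −1.12 ± 0.23 (adjusted p = 0.0395), with ElkKO mouse 3 nearest to WT. Cfp encodes properdin, which stabilises the alternative pathway convertase of complement. It read 4.64, 4.89 and 4.64 in ElkKO and 5.77, 6.08 and 5.46 in WT, a fall of log2 −1.05 ± 0.17 (adjusted p = 0.00911), and its second probe set differed by −0.65. In ElkKO its signal lay below the highest Xist signal, at background level.

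Cfp is the gene next to Elk1 on chromosome X in the gene order of the GRCm38.p6 assembly. Of the 10 genes on each side of Elk1, 14 were measured, and Cfp alone was called, beside 0.22% of all genes. An unadjusted p under 0.05 in limma was found for 4 of the 14, beside 11.4% of all genes. Usp11, which encodes a deubiquitinating enzyme, came next with a difference of −0.62 (adjusted p = 0.207). The 14 differences ran from −1.05 to 0.39 with a median of 0.05. Between stimulated ElkSapKO and SapKO, Cfp, Usp11 (−0.80, adjusted p = 0.0367) and Ndufb11 (0.42, adjusted p = 0.0314) of the 14 were called in limma. In that comparison 2.6% of all genes were called. Only Cfp and Mid1 of the 40 called genes were on chromosome X. The share of all tested genes on that chromosome was not counted.

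The remaining large falls were in genes of chromatin, ubiquitin ligases and metabolism. Setd5, a chromatin regulator with a SET domain, read 6.81, 6.87 and 7.22 in ElkKO and 8.20, 8.14 and 8.54 in WT, a fall of log2 −1.33 ± 0.24 (adjusted p = 0.0215). Its other probe sets gave 0.65 and −0.63. Phf1, a PHD finger protein that associates with Polycomb repressive complexes, fell by 1.10 ± 0.22 on the log2 scale (adjusted p = 0.0293). Neurl1b, an E3 ubiquitin ligase of the Neuralized family, fell by 1.21 ± 0.23 (adjusted p = 0.0273), and Lipe, the hormone-sensitive lipase, by 1.04 ± 0.22 (adjusted p = 0.0446). The other 20 falls lay between −0.54 at Cyth1, an exchange factor for Arf GTPases, and −0.97 at Lmnb1. They included, named after their values were seen, Apbb1ip, an adaptor between Rap1 and integrins (−0.88), Csf2ra, a chain of the GM-CSF receptor (−0.89), Crtc2, a coactivator of CREB (−0.78), and Pbx2, a homeodomain cofactor (−0.73). All 3 Pbx2 probe sets were lower in ElkKO. Csf2ra averaged 4.65 in ElkKO, below the highest Xist signal. With the probe sets of a gene averaged, limma did not call Csf2ra (−0.41, adjusted p = 0.196), Apbb1ip (−0.49, 0.176) or Crtc2 (−0.64, 0.132).

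The 8 rises were led by Mid1 and Gcsh. Mid1 encodes a microtubule-associated E3 ubiquitin ligase. It read 8.62, 8.03 and 8.58 in stimulated ElkKO and 6.17, 6.87 and 5.37 in WT, 4.83-fold higher in ElkKO (log2 2.27 ± 0.34, adjusted p = 0.00582). The WT mice were widely spread, yet the highest of them lay more than 1 below the lowest ElkKO mouse, and Mid1 was called whichever of the 6 arrays was left out. Its other probe sets, both dim, gave −0.21 and 0.06. Gcsh encodes the lipoyl-carrying H protein of the mitochondrial glycine cleavage system. It read 8.95, 8.91 and 8.69 in ElkKO and 6.45, 6.93 and 6.99 in WT, 4.18-fold higher in ElkKO (log2 2.06 ± 0.31, adjusted p = 0.00582).

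The other 6 rises were under 2-fold. Apex1, the main endonuclease for abasic sites in base excision repair, lay at 8.78 to 9.18 in ElkKO and 7.84 to 8.38 in WT (log2 0.93 ± 0.18, adjusted p = 0.0224). Its 2 other probe sets differed by 0.42 and 0.37, in the same direction. Ubxn2b, a cofactor of the p97 ATPase, rose by 0.79 ± 0.14, and Lnx1, an E3 ubiquitin ligase, by 0.73 ± 0.15. With the probe sets of a gene averaged, neither was called in limma. Ubxn2b then differed by 0.27 (adjusted p = 0.704) and Lnx1 by 0.35 (adjusted p = 0.209). Lce1i of the cornified envelope rose by 0.80 ± 0.16, Sohlh2, a transcription factor of germ cells, by 0.71 ± 0.14, and Lyplal1, a lysophospholipase-like protein, by 0.62 ± 0.13. Lyplal1 lay at 4.22 to 4.40 in ElkKO and 3.57 to 3.78 in WT, below the highest Xist signal. In WT Sohlh2 averaged 4.75 and Lnx1 4.82, also below it. Of the non-overlapping genes with the next lowest p, none passed the test: Psg28 differed by 1.07 (adjusted p = 0.0530), Slc34a2 by 0.61 (0.0562), Pou5f2 by 0.96 (0.0676) and Mtm1 by 1.00 (0.0676).

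**Figure D3:**
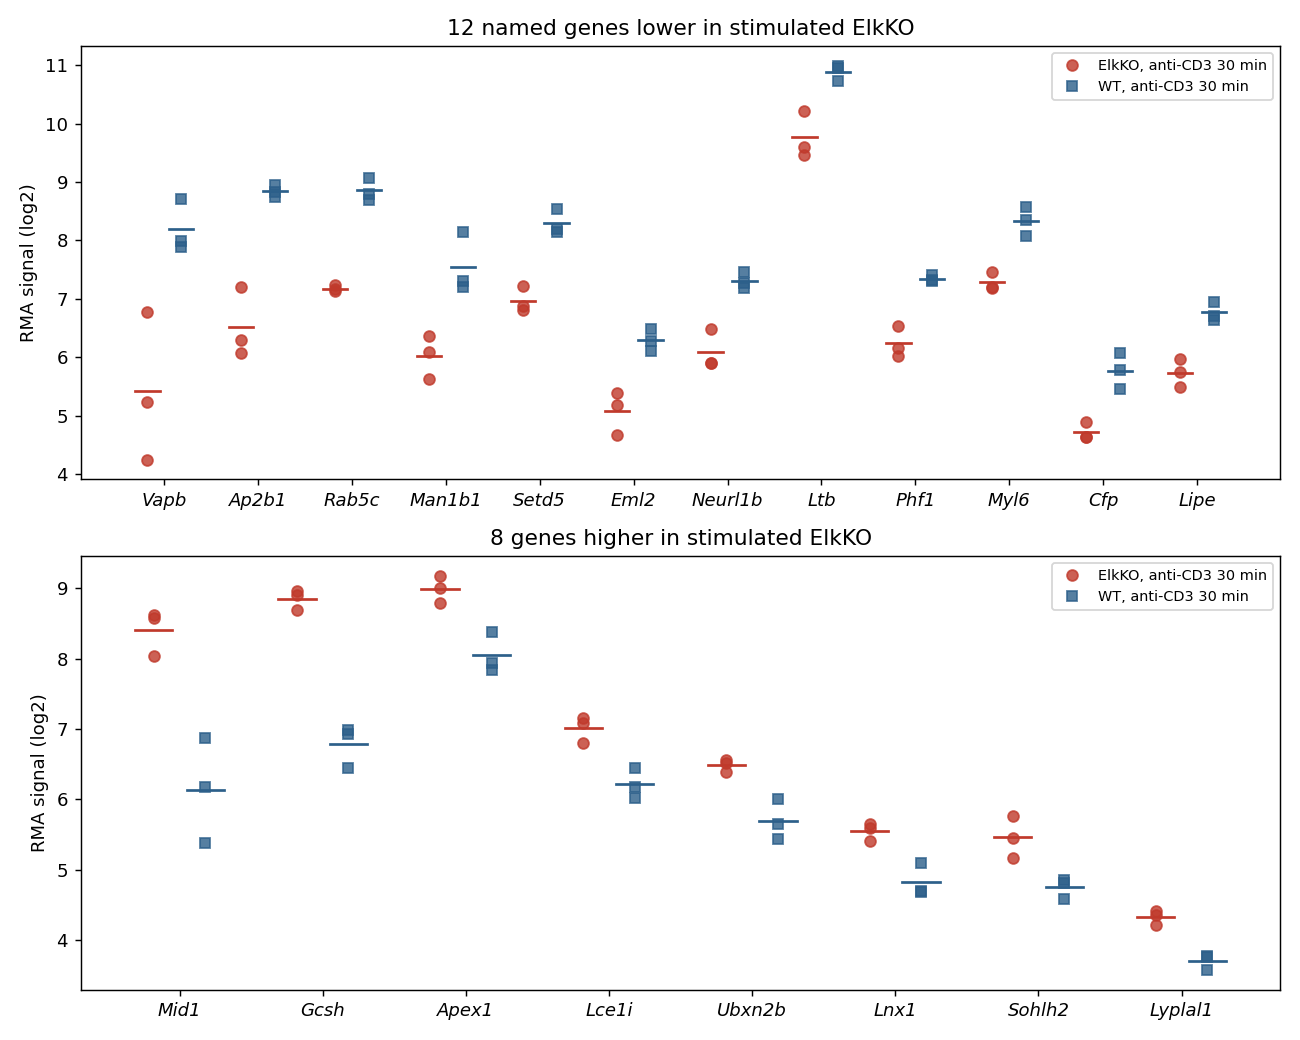
RMA signal (log2) in each stimulated ElkKO array (circles) and WT array (squares), with group means as lines. Above, the 12 largest falls, where Vapb in ElkKO was at 4.24 to 6.77 and Rab5c at 7.13 to 7.23; below, the 8 rises, where Mid1 was at 8.03 to 8.62 in ElkKO and 5.37 to 6.87 in WT.

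Other probe sets were listed for 24 of the 40 called genes. Of these 40 further probe sets, 25 had the sign of the call, 13 of them with an unadjusted p under 0.05, in 10 genes. A further 1 had the opposite sign with such a p, at Gigyf2, a translational repressor.

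The difference in technical measures was set beside the calls. With the dap level as a term in the model, 11 genes were called, 8 of them among the 40: Ap2b1, Capzb, Gcsh, Lmnb1, Mid1, Myl6, Rab5c and Setd5. With the Actb 3′ minus 5′ signal as a covariate, 7 genes were called, 6 of them among the 40: Ap2b1, Crtc2, Klhl18, Lmnb1, Mid1 and Slc7a6os. All 40 genes kept their direction in both, and in the 16 arrays of high dap, where WT has 1 stimulated array, no gene passed limma's test (lowest adjusted p = 0.149; 453 genes with an unadjusted p under 0.05). The ElkKO arrays of that fit are those in which the 40 genes were called, so their differences there are no separate check.

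Windows around the transcription start are shown for Klhl18 and Myl6, called genes that carry the letters of a ternary complex factor or Srf element, and for Egr2 and Dusp5, induced genes that do. The ETS letters were CCGGAAGT and the Srf element was the CArG box, both searched on both strands in the 250 bases before and 50 bases after each start in RefSeq (GRCm38.p6). Capitals mark the matches, which in Klhl18 are the ETS letters of the opposite strand, and in the others the CArG box. The Egr2 window is 1 of 5 for its gene and the Myl6 window 1 of 2. Each window is written 5′ to 3′ as RefSeq's table gives it. Klhl18 lies on the minus strand at chr9:110476645-110476944, Myl6 on the minus strand at chr10:128492960-128493259, Egr2 on the plus strand at chr10:67537316-67537615 and Dusp5 on the plus strand at chr19:53528895-53529194.
Klhl18: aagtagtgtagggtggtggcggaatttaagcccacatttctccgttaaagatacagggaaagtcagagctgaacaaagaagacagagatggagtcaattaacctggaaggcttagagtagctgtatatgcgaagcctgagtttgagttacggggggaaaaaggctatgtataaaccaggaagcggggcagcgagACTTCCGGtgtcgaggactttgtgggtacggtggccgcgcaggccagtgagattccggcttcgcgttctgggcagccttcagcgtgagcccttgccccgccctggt
Myl6: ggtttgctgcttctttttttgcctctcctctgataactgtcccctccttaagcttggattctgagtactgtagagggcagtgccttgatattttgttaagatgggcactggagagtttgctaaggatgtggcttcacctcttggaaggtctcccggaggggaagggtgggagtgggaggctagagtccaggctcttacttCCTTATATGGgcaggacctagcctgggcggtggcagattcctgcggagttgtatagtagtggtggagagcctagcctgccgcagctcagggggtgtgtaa
Egr2: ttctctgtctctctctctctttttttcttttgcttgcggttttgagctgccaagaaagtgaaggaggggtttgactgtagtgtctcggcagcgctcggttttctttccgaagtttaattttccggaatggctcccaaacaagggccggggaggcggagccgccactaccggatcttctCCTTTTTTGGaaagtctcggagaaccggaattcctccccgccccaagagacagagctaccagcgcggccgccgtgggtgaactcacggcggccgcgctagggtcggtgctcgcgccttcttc
Dusp5: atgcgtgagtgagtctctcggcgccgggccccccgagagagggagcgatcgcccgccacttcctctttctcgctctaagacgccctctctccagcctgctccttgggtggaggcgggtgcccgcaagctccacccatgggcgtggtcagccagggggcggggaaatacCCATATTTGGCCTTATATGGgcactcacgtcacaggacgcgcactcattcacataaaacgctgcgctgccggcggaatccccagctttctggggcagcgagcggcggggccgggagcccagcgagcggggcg
The ETS letters were in the windows of 3 of the 34 called genes that had one, 8.82% (Ccdc71, Itpkc and Klhl18), and of 6.65% of 14368 tested genes. A CArG box was in that of 1 called gene, Myl6, 2.94% of 34, against 1.59% of the tested genes. Among induced genes, described next, 3 of 38 windows held a CArG box, 7.89% (Egr2, Dusp5 and Zfp36, whose protein promotes mRNA decay), and none held the ETS letters. Klhl18, a substrate adaptor of a cullin ubiquitin ligase, read 5.57, 5.18 and 5.50 in ElkKO and 6.32, 6.41 and 6.41 in WT, a fall of log2 −0.96 ± 0.15 (adjusted p = 0.00675). With its probe sets averaged it differed by −0.48 and was not called (adjusted p = 0.17 in limma). Dusp5, which was not called, is described below with the other MAP kinase phosphatase.

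Genes that anti-CD3 induces were examined as a group chosen outside the comparison. They were called and raised at least 2-fold in the average response of SapKO and ElkSapKO cells, in which 124 genes rose (0.682%), and there were 54 of them. Both groups lack Sap and ElkSapKO also lacks Elk1, so genes that need these factors to respond were less likely to be chosen. None of the 54 was called between ElkKO and WT, beside 0.22% of all genes. Their lowest adjusted p in limma was 0.0974, at Gpr171, a G protein-coupled receptor. Without the array of ElkSapKO mouse 2 that stood apart, 3 of the 54 passed the test, all lower in ElkKO: Fosl2 (adjusted p = 0.0361), Per1 (0.0370) and Gpr171 (0.0406). In that fit 189 of the 18193 genes were called lower (1.04%). An unadjusted p under 0.05 was found for 19 of the 54, set beside 11.4% of all genes. The median difference of the 54 genes was −0.31, beside −0.017 over all genes, and 40 of the 54 were lower in ElkKO. The groups did not overlap for 16 genes that were lower in ElkKO and 4 that were higher, beside 11.6% and 7.41% of all genes. The median signal of the 54 genes by mouse was 8.67, 8.40 and 8.72 in ElkKO and 8.52, 9.06 and 8.55 in WT, so that WT mouse 2 was the highest and the other 2 WT mice lay among the ElkKO mice. The median difference was −0.25 with the dap level as a term, −0.25 with the Actb covariate and −0.17 among the high-dap arrays. For 31 of the 54 genes the 95% interval of the difference lay within 1 on either side of 0.

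The response of each genotype to anti-CD3 was compared next. The median response of the 54 genes over untreated cells was 1.41 in ElkKO and 1.43 in WT, and 53 of them had a positive response in both. These medians do not compare gene by gene. Taken gene by gene, the response in ElkKO minus that in WT had a median of −0.22 over the 54. Their median difference between untreated ElkKO and WT was −0.05. Across all 18193 genes, none was called for a difference between the ElkKO and WT responses (0%, limma, lowest adjusted p = 1.00), with 165 genes (0.907%) at an unadjusted p under 0.05. The standard error of the response difference had a median of 0.24 over all genes and of 0.37 over the 54, and a test that was not passed does not show that the responses were alike.

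The Egr transcription factors, which carry the receptor signal into positive selection, had small differences with intervals that held 0. Egr1 read 13.27, 13.36 and 13.19 in ElkKO and 13.26, 13.29 and 13.52 in WT, a difference of −0.09 with a 95% interval of −0.64 to 0.47. Egr2 read 11.24, 11.54 and 11.88 in ElkKO and 11.59, 11.79 and 11.75 in WT, a difference of −0.16 with an interval of −0.83 to 0.51. The values overlapped for both genes, and the responses were 6.59 in ElkKO and 6.79 in WT for Egr1 and 6.93 in ElkKO and 7.26 in WT for Egr2. The brightest Egr3 probe set differed by −0.30 (interval −0.71 to 0.11). It averaged 6.59 in stimulated and 5.96 in untreated ElkKO cells, and 6.89 in stimulated and 5.85 in untreated WT cells. The response of this probe set was small, at 0.64 in ElkKO and 1.05 in WT. The other responded strongly, at 10.32, 10.23 and 10.56 in stimulated ElkKO and 10.17, 10.71 and 10.41 in stimulated WT, where untreated cells lay at 2.73 to 3.19 in ElkKO and 2.92 to 3.33 in WT. Its difference in stimulated cells was −0.06 (interval −0.59 to 0.47).

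The differences of Fos family genes varied more. Fos, which pairs with Jun proteins in AP-1, read 11.02, 11.50 and 10.57 in ElkKO and 11.20, 10.85 and 10.90 in WT, a difference of 0.04 with a wide interval of −1.11 to 1.20. Fosb read 4.91, 6.36 and 6.44 in ElkKO and 6.49, 7.07 and 7.50 in WT, a difference of −1.11 with an interval of −1.84 to −0.39. The Fosb groups did not overlap, but the gap between the nearest mice was small and the adjusted p was 0.188. The Fosb response was 1.72 in ElkKO and 3.01 in WT, and its response difference had the lowest unadjusted p of the 54 genes, 0.0159. Fosl2 read 5.12, 5.25 and 5.07 in ElkKO and 6.46, 7.14 and 5.97 in WT, a difference of −1.37 (adjusted p = 0.0991). Junb differed by −0.22 (interval −0.75 to 0.32).

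None of the other early genes given here was called, and all but Nfkbiz and Ikzf2 were lower in ElkKO. Nr4a1, an orphan nuclear receptor that tracks receptor signal strength, read 12.11, 12.38 and 12.47 in ElkKO and 12.94, 13.09 and 12.81 in WT, without overlap, a difference of −0.63 with an interval of −1.55 to 0.30. Its relatives Nr4a2 and Nr4a3 differed by −0.69 (adjusted p = 0.388) and −1.21 (adjusted p = 0.184). The phosphatase genes Dusp2 and Dusp5, which act on ERK, differed by −0.13 (interval −0.54 to 0.28) and −0.47 (interval −0.88 to −0.06, adjusted p = 0.359). Nfkbid and Nfkbiz, nuclear members of the IkB family, differed by −0.72 (adjusted p = 0.251) and 0.16 (adjusted p = 0.888). With its probe sets averaged Nfkbiz differed by −0.28 (adjusted p = 0.692 in limma). The immediate early gene Ier2 differed by −0.49 and the early activation marker Cd69 by −0.35 (interval −1.48 to 0.78). Dusp5, Nfkbid and Ier2 were lower in ElkKO without overlap, as were 11.6% of all genes. Ikzf2, a zinc finger factor of the Ikaros family, differed by 0.46 (adjusted p = 0.789). The inhibitory receptor Cd5 differed by −0.38 (interval −0.95 to 0.19). The circadian repressor Per1 read 7.32, 7.85 and 7.55 in ElkKO and 8.41, 8.77 and 8.62 in WT, without overlap, a difference of −1.03 (adjusted p = 0.0991).

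**Figure D4:**
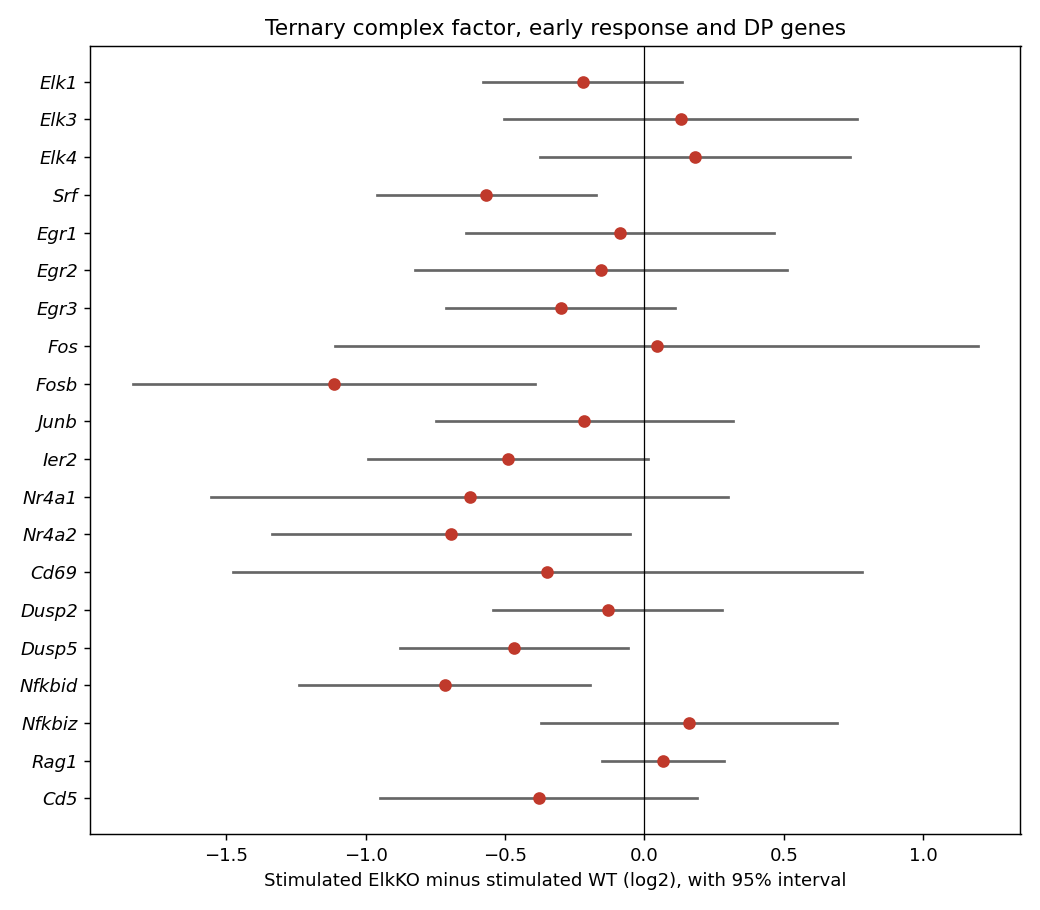
Difference between stimulated ElkKO and stimulated WT (log2, x axis) with its 95% interval from limma for 20 genes: the ternary complex factors and Srf, early response genes and the DP genes Rag1 and Cd5. None was called; the interval of Fosb ran from −1.84 to −0.39 and that of Egr1 from −0.64 to 0.47.

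Srf itself read 7.85, 7.81 and 8.49 in ElkKO and 8.49, 8.55 and 8.80 in WT. The groups were next to each other without overlap, with ElkKO mouse 3 just under the lowest WT mouse. The difference was −0.57 ± 0.19 (adjusted p = 0.223), and that of its second probe set −0.76 (adjusted p over probe sets = 0.177).

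Lists of Srf targets held no called gene, beside 0.22% of all genes called, a share at which lists of this size would mostly hold none. Of the 22 cytoskeletal genes of Srf and the myocardin-related factors, 0 rose and 0 fell, 20 were lower in ElkKO, and the median difference was −0.33, beside 53.5% of all genes lower and a median of −0.017. Of the 22, 11 were lower without overlap, beside 11.6% of all genes. Cnn2, a calponin that binds actin, read 8.96, 9.03 and 8.28 in ElkKO and 10.40, 10.43 and 10.00 in WT, a difference of −1.52 ± 0.33 (adjusted p = 0.0569). Zyx, a focal adhesion protein, read 8.41, 8.06 and 8.01 in ElkKO and 9.22, 9.14 and 9.17 in WT, a difference of −1.02 ± 0.26 (adjusted p = 0.0996). For both genes each WT mouse lay clearly above the highest ElkKO mouse. Tpm4, a tropomyosin, and Wdr1, which helps cofilin to disassemble actin, differed by −0.66 and −0.69. The actin gene Actb differed by −0.25 (adjusted p = 0.332). The median difference of the list was −0.27 with the dap level as a term and −0.39 with the Actb covariate. Its summed linear signal was 43801 to 47411 in ElkKO and 54542 to 56609 in WT.

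Of the 25 immediate early genes of ternary complex factors and Srf, 0 rose and 0 fell, and 18 were lower in ElkKO. Of the 25, 7 were lower without overlap, beside 11.6% of all genes. The median difference was −0.16, beside −0.017 over all genes. Nab2, a corepressor of Egr proteins, differed by −0.96 (adjusted p = 0.209). Without the array of ElkSapKO mouse 2 that stood apart, 4 members of the cytoskeletal list passed the test, all lower in ElkKO: Cnn2 (adjusted p = 0.00736), Zyx (0.0107), Wdr1 (0.0360) and Tpm4 (0.0461). So did 1 member of the immediate early list, Nab2 (0.0249). In that fit 1.04% of all genes passed in this direction.

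The other pathway lists also held 0 called genes, beside 0.22% of all genes. The median difference was −0.29 over 14 AP-1 genes, −0.38 over 12 Nr4a and negative selection genes, −0.26 over 19 NF-kB targets and −0.06 over 19 ERK feedback regulators. It was −0.18 over 15 genes of the MAP kinase cascade, −0.10 over 24 components of receptor signalling and −0.07 over 24 genes of positive selection and maturation. Dok1, an adaptor that restrains Ras signalling, differed by −0.60 (adjusted p = 0.0725), and Grb2, the adaptor that brings Sos to receptors, by −0.47 (adjusted p = 0.0996). Without the array that stood apart, Dok1 (adjusted p = 0.0246) and Grb2 (0.0479) passed the test, as did the ETS repressor Erf (0.0266), Gfi1, a repressor listed among double-negative markers (0.0266), and the stress gene Ddit4 (0.0485). All were lower in ElkKO, beside 1.04% of all genes called lower in that fit.

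Housekeeping lists lay on the other side of 0 by small amounts. The median difference was 0.14 over 20 proteasome subunits, 17 of which were higher in ElkKO. Of the 20, 7 were higher without overlap, beside 7.41% of all genes. Psmd14, the deubiquitinase of the proteasome lid, read 10.66, 10.77 and 10.59 in ElkKO and 10.24, 10.27 and 10.48 in WT, a difference of 0.34 ± 0.10 (adjusted p = 0.184). The median was 0.03 over 20 oxidative phosphorylation genes and 0.05 over 17 cytosolic ribosomal protein genes. Lists of interferon response (0.07), cell cycle (−0.004), heat shock and stress (−0.09) and p53 and apoptosis genes (−0.13) also held 0 called genes, beside 0.22% of all genes.

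Untreated cells of the same mice allowed the calls to be read without stimulation. Between untreated ElkKO and WT, 18 genes were called (0.0989%), 4 higher (0.022%) and 14 lower (0.077%) in ElkKO. Of the 40 genes called in stimulated cells, 10 were also called there with the same sign, 25% of the 40 and 55.6% of the 18. Among the 40, 39 had the same sign. The arrays differ, but the mice and each gene's estimate of the spread are the same. Lmnb1 in untreated cells read 9.25, 9.17 and 9.17 in ElkKO and 10.13, 10.38 and 10.46 in WT (log2 −1.13 ± 0.13, adjusted p = 0.000243). Mid1 read 8.32, 8.41 and 8.64 in ElkKO and 6.50, 5.90 and 5.22 in WT (log2 2.58 ± 0.34, adjusted p = 0.00180). For both genes the separation of stimulated cells was present without anti-CD3. Gcsh differed by 2.19 in untreated cells, Ap2b1 by −2.10 and Cfp by −1.09. The others were Capzb (−0.71), Trim11, an E3 ubiquitin ligase (−0.82), Rapgef3, an exchange factor for Rap1 that cyclic AMP activates (−0.68), Gigyf2 (−0.92) and Glyr1 (−0.66). Some calls were larger with anti-CD3, though no difference between responses was called: Klhl18 differed by −0.96 in stimulated and −0.38 in untreated cells, and Lyplal1 by 0.62 in stimulated and −0.0046 in untreated cells.

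Mice without Sap gave a second comparison on the presence of Elk1, with no array in common. Each gene's estimate of the spread was the same as for ElkKO against WT, so the calls were not independent. Between stimulated ElkSapKO and SapKO, 473 genes were called (2.6%), 77 higher (0.423%) and 396 lower (2.18%) in ElkSapKO. Of the 40 genes, 25 were called there with the same sign, 62.5% of the 40 and 5.29% of the 473, 2 of them rises and 23 of them falls. The differences of Lmnb1 (−0.85, adjusted p = 0.00225), Ap2b1 (−2.01, adjusted p = 0.00621), Rab5c (−1.98, adjusted p = 0.00225), Cfp (−1.17, adjusted p = 0.00196) and Ltb (−1.05, adjusted p = 0.0219) were negative, as in mice with Sap. Mid1 differed by 1.00 (adjusted p = 0.119) and Vapb by −1.19 (adjusted p = 0.324), both without a call. The sign was the same for 39 of the 40 genes, the exception being Gcsh, at −0.79 (adjusted p = 0.186). Gcsh was also among the 3 genes (0.0165%) whose Elk1 effect differed between mice with and without Sap by an interaction term, with Rbp7 and Nmnat1, which were not called in ElkKO against WT. The Actb 3′ minus 5′ signal was 0.748 ± 0.267 in stimulated ElkSapKO and 0.192 ± 0.0102 in SapKO (SD, n = 3 each), so this comparison carries the same technical difference, and its part in the calls was not tested beyond the values given above. With this signal as a covariate 1 gene was called between ElkSapKO and SapKO, and with the dap level as a term 28.

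**Figure D5:**
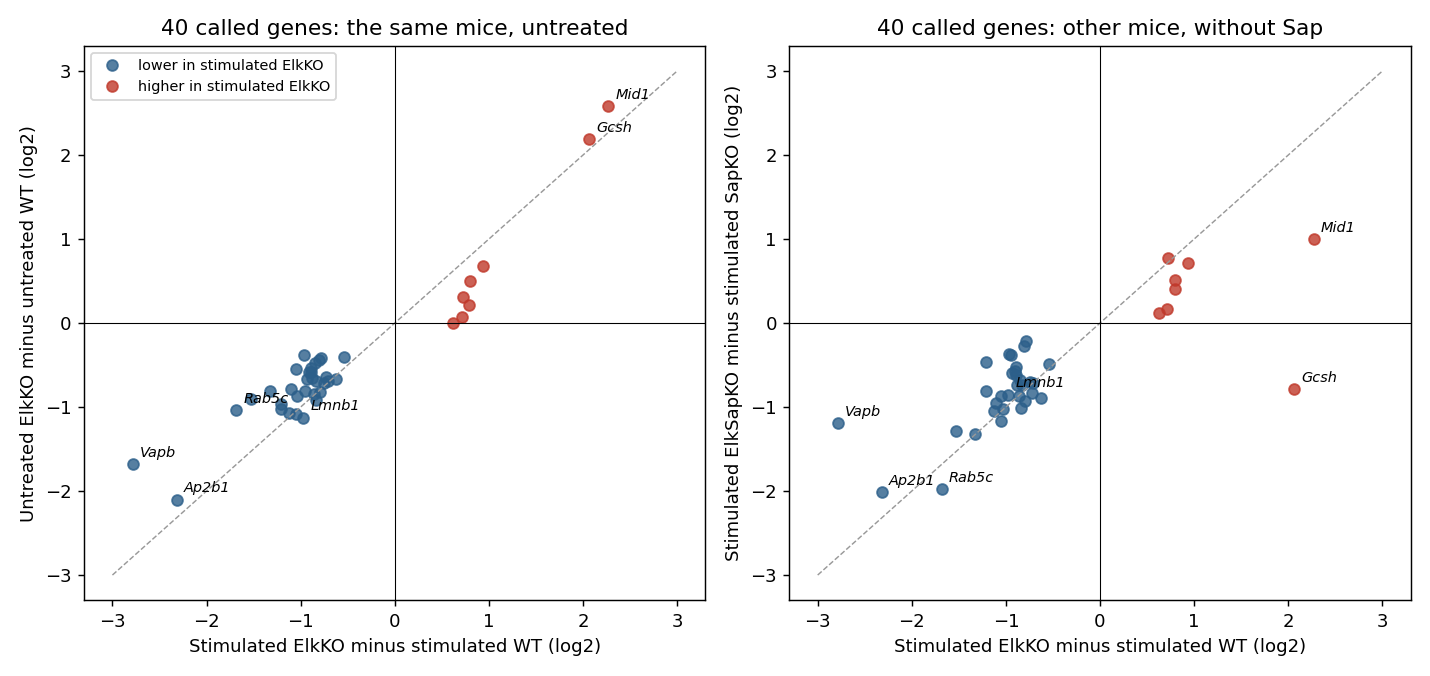
Differences of the 40 called genes (log2) in the stimulated ElkKO and WT arrays (x axis) against untreated ElkKO minus WT (left, same mice) and stimulated ElkSapKO minus SapKO (right, other mice), with the line of equal values dashed. Lmnb1, Ap2b1 and Rab5c were lower without Elk1 in all 3 comparisons, but Rab5c was not called in untreated cells (adjusted p = 0.241 in limma). Gcsh was higher in ElkKO than in WT. It averaged lower in ElkSapKO than in SapKO, without a call (adjusted p = 0.186 in limma).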

How the data were processed

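The authors deposited log2 signals of 45101 Mouse430_2 probe sets, made with RMA and the affy package per the submitters' processing notes, without versions. RMA corrects background, quantile normalizes arrays and summarises probes, so a shift shared by most genes would be removed. Missing values numbered 0, as did value columns of no sample.

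The 64 control probe sets were excluded. GEO's platform annotation gave 1 symbol for 34945 probe sets, several for 932 and none for 9160. The brightest single-symbol probe set by mean over 24 arrays represented each of 18193 genes, of which 18029 matched a RefSeq table of GRCm38.p6. The test was limma 3.58.1 (R 4.3.3) on a model of 8 group means, each of 3 arrays, with moderated variances and 16 residual degrees of freedom; p-values were two-sided and adjusted by Benjamini-Hochberg within each of 6 contrasts. Figures used matplotlib 3.10.9 in Python 3.11.15. The model script was tested on simulated data.

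The members and lists were chosen with earlier results of these data known. Genes named were up to 12 non-overlapping called genes in each direction by size (filled by p), a panel of 20 genes, up to 4 members of each of 25 lists by adjusted p, neighbours of Elk1 and the 12 genes most induced without Sap; clone-like symbols were not named. Stimulated ElkKO and WT arrays with the same number come from different mice, and their deviations from the group means correlated at 0.0149, −0.154 and 0.150 over 8361 genes. Deviations of the untreated and stimulated arrays of the same mouse correlated at 0.10, 0.20 and 0.85 in ElkKO and 0.31, 0.26 and 0.45 in WT. No pair of the 6 stimulated ElkKO and WT arrays correlated above 0.995. Alternatives changed the probe set rule, arrays in the fit, replicate block, centring, array weights, low-signal filter, variance prior, dap and Actb terms, and single arrays.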

Additional observations from a re-analysis of the deposited data

Results flagged for a closer look

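For 3 genes (0.0165% of those tested), the effect of Elk1 loss in stimulated cells differed between mice with and without Sap, by the interaction term of the limma model. Gcsh was 8.85 ± 0.14 in ElkKO and 6.79 ± 0.29 in WT, and 8.23 ± 0.84 in ElkSapKO and 9.02 ± 0.03 in SapKO (SD, n = 3 each), a difference between effects of 2.853 log2 (adjusted p = 0.0161). Rbp7, a retinol-binding protein, was 4.80 ± 0.25 in ElkKO and 4.67 ± 0.55 in WT, and 5.81 ± 0.26 in ElkSapKO and 8.14 ± 0.36 in SapKO, a difference of 2.458 (adjusted p = 0.00836). Nmnat1, an enzyme of NAD synthesis, was 6.10 ± 0.23 in ElkKO and 6.55 ± 0.23 in WT, and 8.63 ± 0.04 in ElkSapKO and 10.48 ± 0.20 in SapKO, a difference of 1.398 (adjusted p = 0.0245). Among the 4 stimulated groups, each of the 3 genes was highest in SapKO. The same held among the untreated groups. There SapKO averaged 9.24 for Gcsh, 7.975 for Rbp7 and 10.43 for Nmnat1, where WT averaged 6.93, 4.38 and 6.40. Rbp7 and Nmnat1 both lie on chromosome 4. The part of other differences between the mice in these values was not tested.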

How the results depend on the processing

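The 40 calls between stimulated ElkKO and WT became 21 with the probe sets of a gene averaged, 65 with every probe set on its own, 72 with arrays centred on their median (64 lower; median difference −0.067), 931 with array weights, 61 among genes with a mean signal of at least 6, 11 with dap as a term, 0 among high-dap arrays, 7 with the Actb covariate and 3 to 264 when single arrays were left out. Untreated ElkKO minus WT, with 18 calls, gave 9 averaged, 42 by probe set, 964 weighted, 5 with dap, 0 at high dap, 2 with Actb and 3 to 106 without single arrays. ElkSapKO minus SapKO, with 473, gave 1535 by probe set, 4548 weighted, 790 filtered, 28 with dap, 0 at high dap, 1 with Actb and 20 to 1377 without single arrays. The effect with Sap minus without, with 3, gave 5 by probe set, 67 weighted, 0 at high dap and 0 to 3 without single arrays. The average response of SapKO and ElkSapKO, with 138, gave 304 by probe set, 84 from its own arrays, 613 weighted, 29 at high dap and 110 to 171 without single arrays. The cause of these changes was not tested, apart from the fewer arrays or other features that each setting tests by construction. The response difference gave 0 calls in each setting, with 16 to 900 genes at an unadjusted p under 0.05 in limma.

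Same-numbered ElkKO and WT arrays share only a number. With mouse as a random replicate block, which joins the untreated and stimulated arrays of a mouse, 52 genes were called, 39 of the 40 among them; with the number as a fixed replicate block 69 were, including all 40. In the other comparisons the blocks moved no count by more than 1.5 times. With only the 6 arrays in the fit 35 genes were called, 13 of the 40 among them. Over the 40 called genes and 18 settings with 1 value a gene, the call was kept in 375 and lost in 337 of 712 cases, with 0 changes of sign.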
